A study of Homo sapiens with 15 samples.

Results

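The 10 genes described here encode brakes on the mitogen-activated protein (MAP) kinase pathways: the dual-specificity phosphatases DUSP1, DUSP4, DUSP5, DUSP6, DUSP8 and DUSP10, the Sprouty proteins SPRY2 and SPRY4, and the Sprouty-related proteins SPRED1 and SPRED2. They were chosen by name and are 10 of the 19143 gene entries in the count table. RNA was sequenced from MHCC-97H cells, a long-established line from human hepatocellular carcinoma, in 15 libraries that form 5 groups of 3. The libraries are taken here as 2 rounds, and the first holds an animal model, a 3D model and a 2D model of these cells. The second holds heat-treated cells of the 3D model and their treatment controls, also in the 3D model. They are called the heat group and the 3D control group here. All 5 groups carry the same cell line, and the labels name no engineered allele. The temperature, the duration of heating, the time of collection, the host animal and the material of the 3D model are not given in the sources used here. The labels call the libraries biological replicates but do not say that they came from separate cultures or animals, so p-values measure the spread between these libraries.

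MAP kinases carry signals from growth factors (the ERK branch) and from stress (the JNK and p38 branches), and they are active only while phosphorylated. The dual-specificity phosphatases remove those phosphates: DUSP1, DUSP4 and DUSP5 act in the nucleus and DUSP6 in the cytoplasm, DUSP5 and DUSP6 prefer ERK, and DUSP8 and DUSP10 prefer JNK and p38. Sprouty and SPRED proteins act further upstream, between receptor tyrosine kinases and RAS, and the SPRED proteins do so by bringing neurofibromin (NF1) to the membrane. Several of these genes are themselves transcribed when ERK is active, which closes a negative feedback loop, and DUSP6, SPRY2 and SPRY4 transcripts are widely read as a gauge of ERK output. Reduced Sprouty and SPRED expression has been described in hepatocellular carcinoma.

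The promoters of 3 members are shown, chosen with the heat values known. DUSP1 had the largest ratio to control of the 10 genes in heat replicate 1, DUSP8 had it in heat replicate 3, and DUSP6 was low in every heated library. DUSP10 is not printed, although it had the largest ratio in heat replicate 2 (2.35) and was above every control in all 3 heated libraries. Capitals mark the full cyclic AMP response element (CRE) TGACGTCA, a site for CREB and ATF family factors. The windows run from 250 bases before to 50 bases after each RefSeq start, 5′ to 3′ on the gene's own strand, which is the minus strand in all 3, in build GRCh38.p14. They lie at chr5:172771146-172771445 for DUSP1, chr11:1572222-1572521 for DUSP8 and chr12:89352452-89352751 for DUSP6.
DUSP1 promoter: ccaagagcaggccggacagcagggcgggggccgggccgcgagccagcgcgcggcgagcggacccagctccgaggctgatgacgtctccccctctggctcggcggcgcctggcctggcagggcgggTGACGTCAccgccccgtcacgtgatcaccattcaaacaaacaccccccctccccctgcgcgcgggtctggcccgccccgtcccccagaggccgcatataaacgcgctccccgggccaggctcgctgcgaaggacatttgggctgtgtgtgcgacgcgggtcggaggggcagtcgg
DUSP8 promoter: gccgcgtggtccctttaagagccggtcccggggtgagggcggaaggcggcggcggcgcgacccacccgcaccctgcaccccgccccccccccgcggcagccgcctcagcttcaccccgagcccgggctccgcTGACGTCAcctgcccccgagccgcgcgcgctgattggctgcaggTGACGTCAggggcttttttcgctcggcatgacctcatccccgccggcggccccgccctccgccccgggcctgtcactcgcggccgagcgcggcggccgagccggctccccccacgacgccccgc
DUSP6 promoter: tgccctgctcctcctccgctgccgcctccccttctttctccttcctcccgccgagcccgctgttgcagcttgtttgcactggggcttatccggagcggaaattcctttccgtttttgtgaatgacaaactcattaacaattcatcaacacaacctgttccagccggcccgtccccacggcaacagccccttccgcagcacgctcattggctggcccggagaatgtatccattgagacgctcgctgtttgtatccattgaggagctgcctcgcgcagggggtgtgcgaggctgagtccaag
The CRE was present once in DUSP1, beginning 125 bases before the start, and at 118 and 74 bases before the start in DUSP8. Of the 8 members with a RefSeq window these 2 held it, and 1.85% of 35116 promoters of the same length did. DUSP10 was among the members without it. DUSP10, SPRY2 and SPRED2 have more than 1 window, and a member was counted if any of its windows matched. The shares of all promoters are per window, so they are not like for like with the member counts. The shorter TGACG, which is contained in the CRE, was in 6 of the 8 members and in 24.6% of all promoters. A pair of heat shock factor repeats was in none of the 8 as GAANNTTC (6.77% of all promoters) or as TTCNNGAA (7.74%). The AP-1 letters TGANTCA were in 1 member, SPRED2, against 7.71% of all promoters. The GC box GGGCGG was in 7 of the 8, the exception being DUSP6, and in 45.0% of all promoters. The ETS letters CCGGAAGT were in no member (4.14% of all promoters), the CArG box of serum response factor was in none (1.29%), and the E-box CACGTG was in 1, DUSP1 (7.26%). All letters were searched on both strands; a match is a description of the window and not a measured binding site.

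Depth and composition differed between libraries, and composition also differed between replicates of a group. Total counts ran between 12605539 and 18634295 per library, and 14218 to 15666 genes had at least 1 read. The animal libraries were the shallowest, with 12605539 to 14538432 counts, against at least 15991686 in every other library. In every library each member was covered by at least 123 reads (SPRED1) and at most 6040 (DUSP6). Replicates 1 and 2 of the 3D group and replicate 1 of the heat group stood apart. In them the gene levels rose with transcript GC content (rank correlation 0.596 to 0.798, against -0.190 to 0.228 in the other 12 libraries). They also had 3.04 to 4.57% of counts on FTL (0.778 to 1.33% elsewhere). Results that rest on these libraries are given with and without them. The line's markers KRT8, KRT18 and HNF4A were high in every group, whereas EPCAM and GPC3 were at or near 0 and ALB had 2.11 to 2.56 CPM in 2D, where CPM is the count scaled to library size. In these bulk samples, fewer cells of a type and less RNA per cell cannot be told apart.

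All 10 genes had reads in all 15 libraries. Per kilobase of transcript, the 2D cells were led by the ERK-directed phosphatases, with DUSP5 at 46.3 ± 3.04, DUSP4 at 40.3 ± 2.66 and DUSP6 at 33.4 ± 0.270 CPM per kilobase (mean ± SD, n = 3). SPRED2 followed at 29.1 CPM per kilobase. DUSP1, SPRED1, SPRY2 and SPRY4 lay between 13.4 and 8.83, and the stress-kinase phosphatases DUSP10 and DUSP8 were last at 4.39 and 2.32. SPRED1 and SPRY2 were neighbours in that order that lay within their spread. In the 3D control cells of the second round the order began with DUSP6 at 76.0 CPM per kilobase. In the heat group it began with DUSP1 at 135 ± 102 CPM per kilobase and DUSP6 was in place 5 of 10 at 19.1 ± 2.90, so the first place there rests on widely spread libraries.

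**Figure D1:**
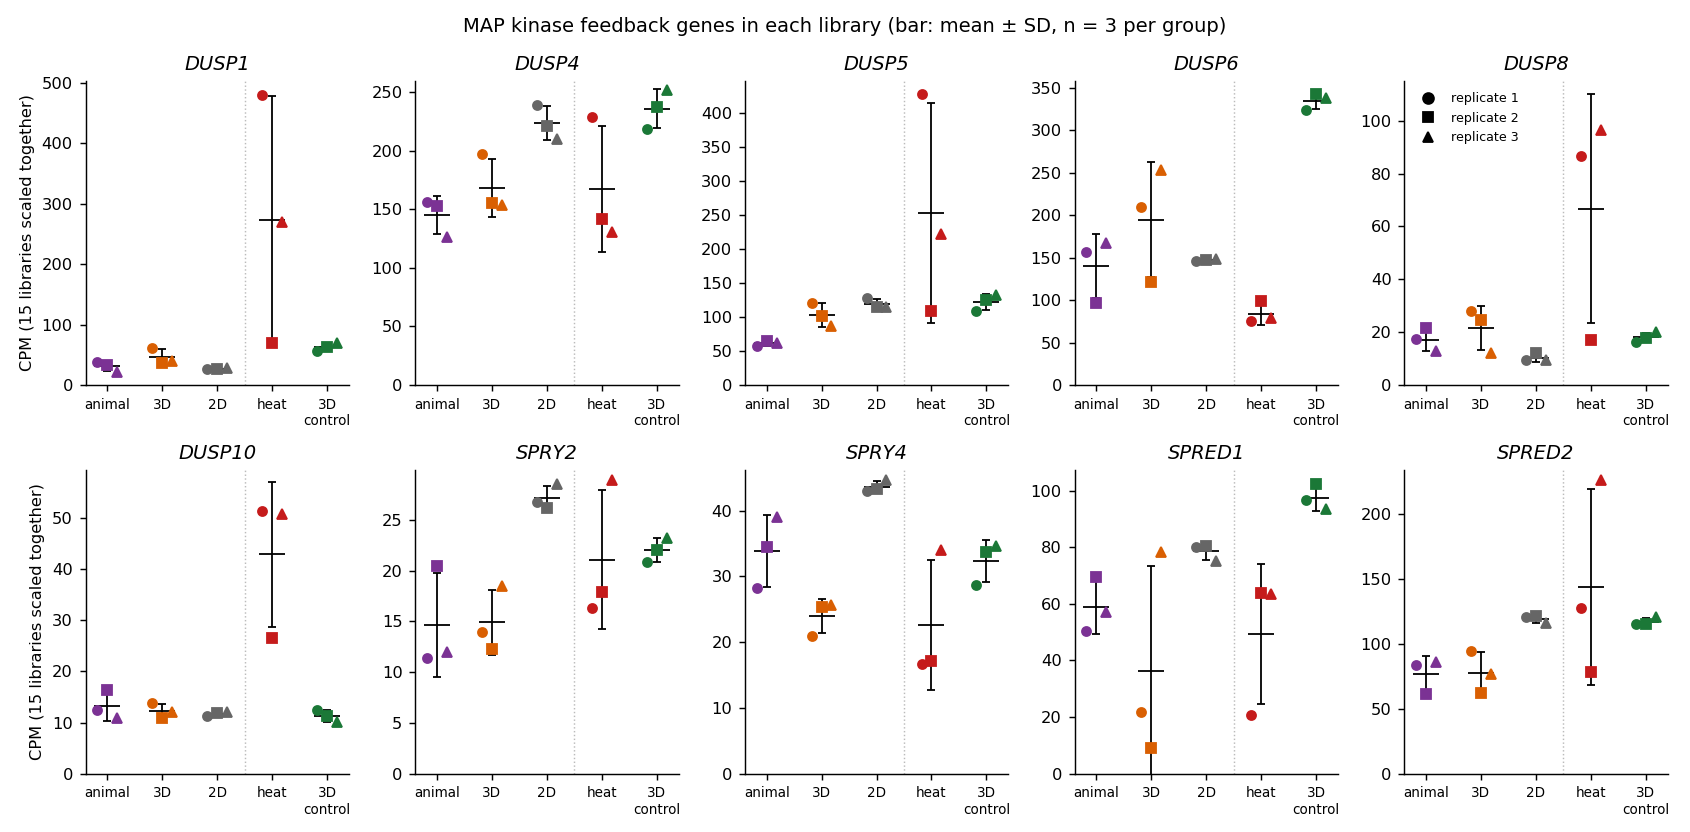
CPM of each of the 10 genes (y axis, 15 libraries scaled together, linear from 0) in every library of the animal, 3D, 2D, heat and 3D control groups. Points are libraries, bars are the mean ± SD of 3 libraries, the dotted line parts the 2 rounds, and the lower SD bar of SPRED1 in 3D is cut at 0. DUSP6 is lowest in the heat group (84.0 CPM on average) and highest in the 3D control group (335 CPM), while DUSP1 in the heat group reaches 480.4 CPM in 1 library and 69.7 in another.

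With all 15 libraries on 1 scale, DUSP6 averaged 195 ± 67.6 CPM in the 3D group of the first round and 335 ± 9.72 CPM in the 3D control group of the second. DUSP1 averaged 45.6 ± 13.3 and 62.4 ± 6.75 CPM in the same groups. Per the labels the first is the 3D model and the second is a treatment control in it, with heat named for neither. Round and group cannot be told apart here, and no test was made between rounds. The widest variation over the 15 libraries was that of DUSP1 (SD of log2 CPM 1.23), SPRED1 (0.98) and DUSP8 (0.98), and the narrowest was that of DUSP4 (0.35).

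The first question of the study is which transcripts a 3D setting changes in these cells relative to flat culture. The Sprouty genes were lower in 3D: SPRY4 and SPRY2 each fell 1.86-fold, and SPRED2 fell 1.57-fold. The stress-kinase phosphatase DUSP8 was higher, 2.01-fold. The ERK phosphatases DUSP4, DUSP5 and DUSP6 did not pass the test. In all, 4 of the 10 were called (1 higher, 3 lower) at an adjusted p below 0.05, where 32.9% of the 12925 genes tested were called (20.0% higher, 12.9% lower). The median log2 fold change of the 10 genes was -0.35 and that of all genes tested was 0.03. CPM did not overlap between the groups for 6 of the 10 (2 above, 4 below), against 50.2% of all genes (24.5% above, 25.6% below). DESeq2 called 2 higher and 3 lower, where it called 43.2% of all genes. Taken in either direction these shares are close to the background. By direction, edgeR called 3 of the 10 lower against 12.9% of all genes, and 1 higher against 20.0%.

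SPRY4, which restrains receptor signalling to RAS, had 20.4, 24.3 and 25.9 CPM in 3D, against 43.2, 43.5 and 45.0 CPM in 2D. Every 3D library lay below every 2D library, replicate 3 as well as the ones that stand apart. The log2 fold change was -0.90 ± 0.20 (SE; edgeR quasi-likelihood test, adjusted p = 0.0110). It was called in 14 of 15 alternative analyses, the exception being the one without 2D replicate 3 (adjusted p = 0.0519). Without both 3D libraries that stand apart the log2 fold change was -0.77. SPRY2, its relative with the same role, had 13.6, 11.8 and 18.7 CPM in 3D, against 26.8, 26.3 and 28.7 CPM in 2D. These groups did not overlap either, and 3D replicate 3 was the nearest to 2D. Its log2 fold change was -0.89 ± 0.29 (edgeR adjusted p = 0.0431). Without the 2 3D libraries that stand apart it was -0.56 (edgeR adjusted p = 0.182), and the call was kept in 6 of 15 alternatives. Leaving out any 1 library of the 2 groups other than 3D replicate 3 lost it (edgeR adjusted p = 0.0955 to 0.126).

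SPRED2 had 91.7, 59.8 and 77.8 CPM in 3D, against 121, 122 and 117 CPM in 2D, with no overlap. Its log2 fold change was -0.65 ± 0.21 (edgeR adjusted p = 0.0447), a call found again in 6 of 15 alternatives. It was lost without any 1 of the 2D libraries or without 3D replicate 2 (edgeR adjusted p = 0.0895 to 0.127). Without both 3D libraries that stand apart the log2 fold change of SPRED2 was -0.64. SPRED1 had 21.2, 8.59 and 79.3 CPM in 3D, against 80.4, 80.8 and 75.8 CPM in 2D. Replicates 1 and 2 of the 3D group were far below 2D and replicate 3 lay within the 2D range. SPRED1 has the lowest transcript GC content of the 10 genes (38.9%), and those 2 libraries are the ones in which levels followed GC content. Its log2 fold change of -1.12 ± 0.64 did not pass the test (edgeR adjusted p = 0.197). It was -2.41 (edgeR adjusted p = 0.000201) without 3D replicate 3, -0.0063 (edgeR adjusted p = 0.982) without both libraries that stand apart, and -0.37 (edgeR adjusted p = 0.305) with a correction for GC content and length.

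DUSP8, which acts on JNK and p38, had 27.4, 23.5 and 12.2 CPM in 3D, against 9.64, 12.2 and 9.53 CPM in 2D. The third 3D library was barely above the highest 2D library, and the other 2 are those that stand apart. The log2 fold change was 1.01 ± 0.34 (edgeR adjusted p = 0.0465). DUSP8 has the highest GC content of the 10 (64.6%), and with the correction for GC content and length the log2 fold change was 0.17 (edgeR adjusted p = 0.650). Without both libraries that stand apart it was 0.22 (edgeR adjusted p = 0.571), and leaving out any 1 library of the 2 groups other than 3D replicate 3 also lost the call (edgeR adjusted p = 0.0960 to 0.163). Its relative DUSP10 had 13.4, 10.4 and 12.1 CPM in 3D, against 11.3, 11.99 and 12.2 CPM in 2D, and the groups overlapped (log2 fold change 0.02 ± 0.23).

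DUSP1, an immediate early gene that responds to stress and growth factors, had 59.2, 34.8 and 40.2 CPM in 3D, against 26.7, 26.7 and 28.2 CPM in 2D. It was higher in all 3 3D libraries, with a log2 fold change of 0.72 ± 0.27, but its adjusted p was 0.0714 in edgeR and 0.0198 in DESeq2. The DUSP1 log2 fold change was 0.094 with the GC and length correction, and 0.55 without both 3D libraries that stand apart. DUSP4 had 192, 149 and 155 CPM in 3D, against 240.4, 222 and 212 CPM in 2D. Its groups did not overlap (log2 fold change -0.45 ± 0.18, edgeR adjusted p = 0.0816). DUSP5 had 117, 97.5 and 87.2 CPM in 3D and 128, 115 and 115 CPM in 2D, and the groups overlapped (log2 fold change -0.25 ± 0.17). With the GC and length correction it was called lower (-0.84, edgeR adjusted p = 0.0124). DUSP6 had 204, 116 and 256 CPM in 3D, against 147, 148 and 149.7 CPM in 2D. Replicates 1 and 3 of the 3D group lay above 2D and replicate 2 below it, so the log2 fold change of 0.38 ± 0.31 did not exceed the spread. With 3D replicate 3 as the only 3D library, assumed to vary as the other groups do, DUSP6 was higher (0.78, edgeR adjusted p = 0.0379). DUSP4 (-0.55, adjusted p = 0.0136) and DUSP5 (-0.46, adjusted p = 0.0103) were lower in the same edgeR fit, in which 46.4% of all genes were called.

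**Figure D2:**
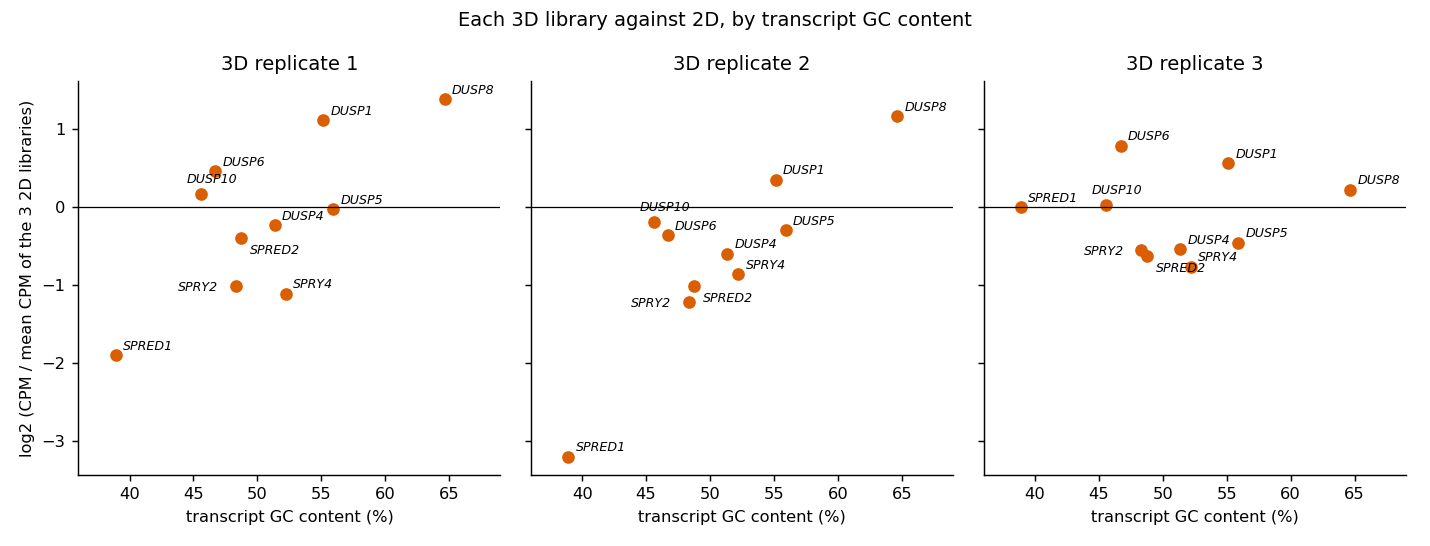
Log2 ratio of CPM in each 3D library to the mean CPM of the 3 2D libraries (y axis) against transcript GC content in percent (x axis), 1 panel per 3D library and 1 point per gene. In replicates 1 and 2 SPRED1 is the lowest point (-1.90 and -3.20) and DUSP8 the highest (1.39 and 1.17), and in replicate 3 SPRED1 is at 0.01 and DUSP8 at 0.23, while SPRY2, SPRY4 and SPRED2 are below 0 in all 3.

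DUSP6 shares 1875 exon bases with an annotated antisense gene, AC024909.2, which has no entry of its own in the table. No strand-marking step is described for these libraries, so reads of the 2 genes cannot be told apart. DUSP5 has 2 and DUSP8 has 3 annotated pseudogenes without an entry, so their counts are uncertain to the extent that such reads were assigned to them.

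Around these members, other genes of the pathway were called in both directions in 3D. Of 12 other Sprouty, SPRED and receptor brakes tested, 1 rose and 3 fell: SPRY1 (1.88-fold lower, adjusted p = 0.00897), CBL, a ubiquitin ligase for receptors (2.12-fold lower, adjusted p = 0.0111), and NF1 (2.46-fold lower, adjusted p = 0.0448) fell in edgeR's test. CBLB rose 1.75-fold. Of the 4 other MAP kinase phosphatases, 1 rose and 0 fell: DUSP9, an ERK-preferring phosphatase, averaged 10.7 ± 4.13 CPM in 3D and 2.37 ± 0.790 CPM in 2D. Of 8 atypical DUSP genes, DUSP23 rose and DUSP12 fell. Of 13 receptors and ligands, 3 rose and 3 fell. The receptor ERBB3 averaged 168 ± 17.5 CPM in 3D and 48.7 ± 3.35 CPM in 2D, and the EGFR ligand EREG averaged 29.8 ± 25.5 CPM in 3D and 129 ± 5.47 CPM in 2D. Of 18 RAS to ERK cascade genes 2 rose and 2 fell. MAPK3, the gene of the kinase ERK1, rose 3.74-fold. Of 18 JNK and p38 cascade genes 2 rose and 4 fell. Of 12 ERK output genes tested, IER3 and PLAUR rose and EGR1 fell 2.75-fold. These counts stand beside the 32.9% called among all genes. The list medians lay between -0.27 and 0.02 on the log2 scale, and between -0.38 and -0.18 with the correction for GC content and length.

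**Figure D3:**
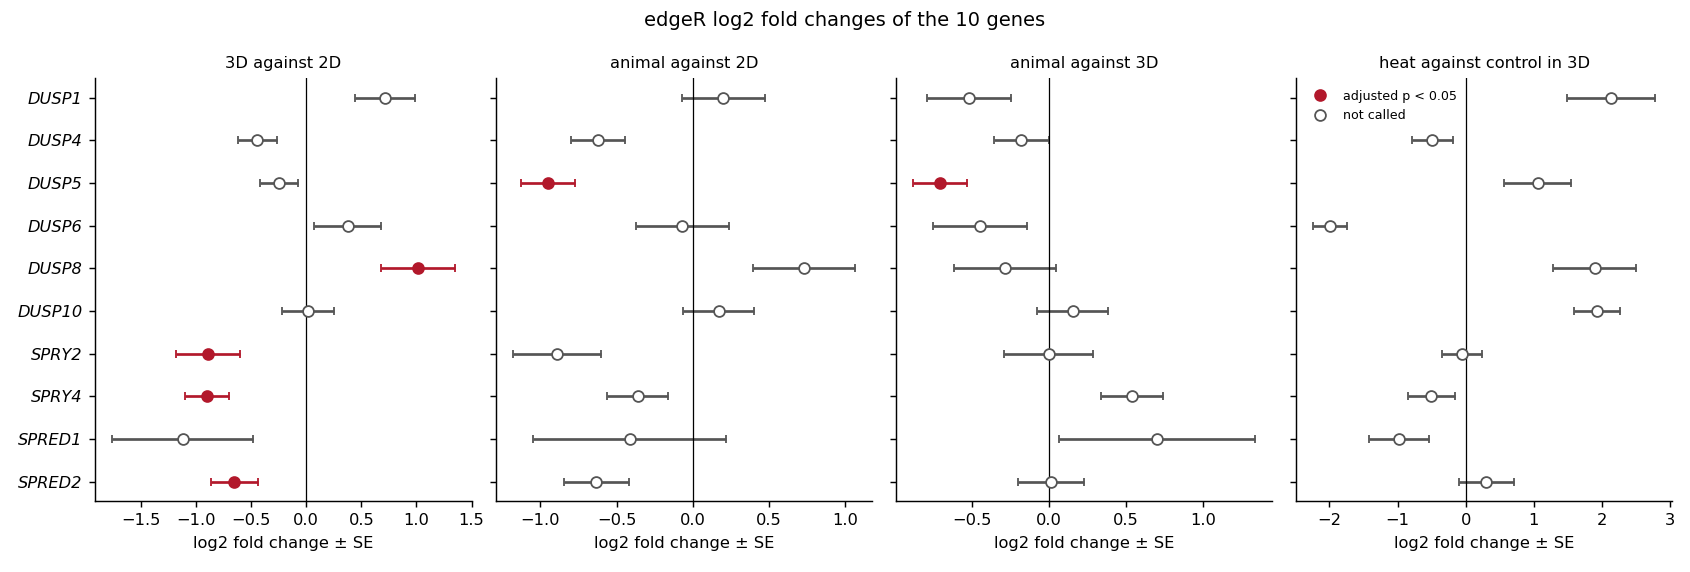
Log2 fold change ± SE (x axis, edgeR) of each of the 10 genes (y axis) in the 4 comparisons, 1 panel each; filled red points have an adjusted p below 0.05. SPRY4, SPRY2 and SPRED2 are called lower and DUSP8 higher in 3D against 2D, DUSP5 is called lower in both animal comparisons, and no gene is called in heat against control, where the points are farthest from 0 (2.14 for DUSP1 and -1.99 for DUSP6).

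The animal model was set against both culture models. DUSP5, the nuclear ERK phosphatase, fell in the animal model against 2D (1.93-fold) and against 3D (1.63-fold). The comparisons share the animal libraries, so they are not independent. No other member passed the test in either. Against 2D, 1 of the 10 was called, where 12.0% of all genes were (7.78% higher, 4.25% lower). Against 3D, 1 was called where 41.5% of all genes were (18.6% higher, 22.9% lower). DESeq2 called 4 of the 10 lower against 2D, where it called 1007 of 12925 genes lower (18.9% in either direction). Against 3D it called 1 lower, where it called 3669 of 12925 genes lower (51.1% in either direction). The median log2 fold change of the 10 genes was -0.39 against 2D (0.03 over all genes) and -0.09 against 3D (0.10 over all genes).

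DUSP5 had 57.8, 65.0 and 62.3 CPM in the animal model, against 117, 97.5 and 87.2 CPM in 3D and 128, 115 and 115 CPM in 2D. All animal libraries were below all libraries of both culture models. Against 2D the log2 fold change was -0.95 ± 0.18 (edgeR adjusted p = 0.00877). That call was kept in 13 of 14 alternatives and lost without 2D replicate 1 (edgeR adjusted p = 0.0568). Against 3D it was -0.71 ± 0.18 (edgeR adjusted p = 0.0131), but -0.08 (edgeR adjusted p = 0.771) with the correction for GC content and length. Without animal replicate 1 the 3D comparison had an edgeR adjusted p of 0.0559. Without both 3D libraries that stand apart its log2 fold change was -0.51.

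DUSP4 and DUSP1, the other 2 nuclear phosphatases, did not pass edgeR's test. DUSP4 had 156, 154 and 127 CPM in the animal model, below the 212 to 240.4 CPM of the 2D libraries without overlap (log2 fold change -0.62 ± 0.18, adjusted p = 0.0528 in edgeR and 0.00663 in DESeq2). DUSP1 had 38.4, 33.1 and 22.2 CPM in the animal model and overlapped with 2D. DUSP6 had 156, 97.9 and 169 CPM in the animal model, on both sides of the narrow 2D range, with a log2 fold change of -0.07 ± 0.31. Its animal replicate 2 was the low one. Without the 2 3D libraries that stand apart, DUSP6 was called lower in the animal model against 3D (log2 fold change -0.87, edgeR adjusted p = 0.0256), with DUSP5, where 47.1% of all genes were called.

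SPRY2 had 11.4, 20.7 and 12.1 CPM in the animal model, all below the 26.3 to 28.7 CPM of 2D. Its log2 fold change against 2D was -0.89 ± 0.29, with an adjusted p of 0.0819 in edgeR and 0.0132 in DESeq2. SPRY4 had 28.2, 34.9 and 39.5 CPM in the animal model, which is between the 3D libraries (20.4 to 25.9 CPM) and the 2D libraries (43.2 to 45.0 CPM) without overlap with either. Neither difference passed the test (adjusted p = 0.0572 against 3D and 0.293 against 2D, edgeR). SPRED1 had 50.4, 70.0 and 57.5 CPM and SPRED2 had 83.5, 61.6 and 86.9 CPM in the animal model, again below every 2D library. DUSP8 had 17.3, 21.8 and 12.9 CPM and DUSP10 had 12.5, 16.6 and 10.9 CPM in the animal model, and only DUSP8 was above every 2D library.

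In CPM, 7 of the 10 genes did not overlap between animal and 2D (1 above, 6 below), against 66.4% of all genes (33.8% above, 32.6% below). Between animal and 3D 2 of the 10 did not overlap (1 above, 1 below), against 50.2% of all genes (27.9% above, 22.3% below). Fitted with these 2 groups alone, the comparison with 2D called the same 7 genes (6 lower, and DUSP8 higher), where 57.4% of all genes were called. Of these 7, DUSP5 alone was called when the 3D libraries shared the estimate of the spread.

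The animal libraries also differed in markers of stromal and blood cells. On the scale of all 15 libraries, the summed level of 8 fibroblast and pericyte markers was 163 to 461 CPM in the animal libraries, 16.1 to 113 CPM in 3D and 64.6 to 68.9 CPM in 2D, with none of the 8 at 0 in any animal library. The sum of 10 macrophage and leukocyte markers was 159 to 217 CPM in the animal libraries, 388 to 495 CPM in 3D and 102 to 109 CPM in 2D, with CD68 the largest part of it in every group. LYZ had 2.47 to 9.19 CPM there, against 0 to 0.0776 CPM in 3D and 0 to 0.0533 CPM in 2D, and CD74 had 18.4 to 24.0 CPM, against 3.25 to 9.38 CPM in 3D and 1.27 to 1.92 CPM in 2D. CSF1R was above 0 in all 3 animal libraries and at 0 in 2D, while TYROBP was at 0 in all 3 animal libraries. The sum of 6 endothelial markers was 8.51 to 19.8 CPM in the animal libraries, 25.6 to 55.3 CPM in 3D and 7.42 to 8.07 CPM in 2D, with EGFL7 the largest part of the 3D sum. KDR had 4.27 to 15.1 CPM in the animal libraries, against 0.436 to 1.16 CPM in 3D and 0.950 to 1.17 CPM in 2D, and TEK and CDH5 were also higher in every animal library than in any of 3D or 2D, while VWF was at 0 in animal replicates 1 and 2. ALB reached 90.9 to 283 CPM in the animal libraries. Their part in the results on the 10 genes was not tested, and whether reads of a host were removed is not given in the sources used here.

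Against 2D, 0 of 12 ERK output genes rose and 3 fell in the animal model, namely EGR1 (3.52-fold lower), MYC (2.95-fold lower) and the cyclin CCND1 (1.72-fold lower). Against 3D, 0 rose and 4 fell, with IER3 4.51-fold lower (edgeR adjusted p = 0.000416). Of the 12 other receptor brakes, LRIG1, which restrains ERBB receptors, averaged 35.9 ± 4.11 CPM in the animal model, 16.9 ± 1.91 CPM in 3D and 18.7 ± 1.38 CPM in 2D. CBL fell 1.84-fold against 2D and CBLB fell 1.88-fold against 3D. Of the 4 other MAP kinase phosphatases none was called against 2D and DUSP9 fell 6.11-fold against 3D. Of the 8 atypical DUSP genes none was called against 2D and DUSP23 fell 3.94-fold against 3D. Among 13 receptors and ligands, 3 rose and 2 fell against 2D, with ERBB3 3.18-fold higher and the EGFR ligand AREG 3.22-fold lower; against 3D, 3 rose and 2 fell, and FGFR3 was 6.92-fold lower. The RAS to ERK list had 1 gene higher and 1 lower of 18 against 2D, and 4 higher and 7 lower against 3D. The JNK and p38 list had 2 higher and 0 lower of 18 against 2D, and 6 higher and 3 lower against 3D. All these counts stand beside 12.0% of all genes called against 2D and 41.5% called against 3D.

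The second round compared heat-treated cells of the 3D model with their treatment controls. The 10 genes parted in direction: the ERK phosphatase DUSP6 was at 0.226 to 0.295 times the control mean in the 3 heated libraries, the stress-kinase phosphatase DUSP10 was at 2.35 to 4.58 times it, and DUSP1 and DUSP8 were several times higher in 2 of the 3 heated libraries and near control in the third. None of the 10 passed edgeR's test at an adjusted p below 0.05, where 0.0238% of the 12627 genes tested did (3 genes, 0.00792% higher and 0.0158% lower). At an unadjusted p below 0.05 there were 4 members (DUSP1, DUSP6, DUSP8 and DUSP10), against 20.8% of all genes. DESeq2 called 3 higher (DUSP1, DUSP8 and DUSP10) and 1 lower (DUSP6), against 6.74% of all genes higher, 5.46% lower and 12.2% in either direction. CPM did not overlap for 4 of the 10, against 36.6% of all genes, with DUSP1 and DUSP10 above (17.7% of all genes) and DUSP6 and SPRED1 below (18.9%). The median log2 fold change of the 10 genes was 0.13 and that of all genes tested 0.10.

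The heated libraries differed among themselves in the heat shock genes too. On the scale of all 15 libraries, the summed level of 8 heat shock genes was 67423, 4958 and 41733 CPM in heat replicates 1, 2 and 3, against 3361 to 3636 CPM in the 3D controls. Scaled within the second round, HSPA1A, the main inducible HSP70 gene, had 24668, 1309 and 15693 CPM in the heat group, against 354 ± 11.0 CPM in the 3D controls. Heat replicate 2 was thus much nearer to control than the other 2, although still above it, and heat replicate 1 is one of the libraries that stand apart.

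DUSP6, the cytoplasmic phosphatase that removes phosphate from ERK, had 75.6, 98.9 and 78.9 CPM in the heat group, against 324, 343 and 338 CPM in the 3D controls. All heated libraries lay far below all controls, heat replicate 2 included. The log2 fold change was -1.99 ± 0.25 (3.96-fold lower), with an adjusted p of 0.0699 in edgeR and 2.70e-13 in DESeq2. DUSP10, which acts on p38 and JNK, had 51.7, 26.5 and 51.1 CPM in the heat group, against 12.4, 11.3 and 10.1 CPM in the 3D controls. It too was apart from control in all 3 heated libraries, with replicate 2 the lowest. The log2 fold change was 1.93 ± 0.33, with an adjusted p of 0.0888 in edgeR and 2.18e-05 in DESeq2. Both genes were called in 5 of 14 alternatives: DESeq2, all 15 libraries in 1 fit, the correction for GC content and length, and the fits without heat replicate 1 or without heat replicate 2. The fit without heat replicate 2 called 3 members higher and 1 lower, where 8.13% of all genes were called, and the fit of all 15 libraries called as many, where 11.4% were.

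DUSP1, the inducible nuclear phosphatase for p38, JNK and ERK, had 485, 69.9 and 271 CPM in the heat group, against 55.7, 62.5 and 69.1 CPM in the 3D controls. Replicates 1 and 3 were far above control, and replicate 2 was level with the highest control. Its log2 fold change was 2.14 ± 0.65, with an adjusted p of 0.149 in edgeR and 0.0106 in DESeq2. DUSP8 had 87.2, 17.1 and 97.2 CPM in the heat group, against 16.4, 17.8 and 19.9 CPM in the 3D controls, and its replicate 2 was within the control range. Its log2 fold change was 1.89 ± 0.61, with an adjusted p of 0.163 in edgeR and 0.0206 in DESeq2. DUSP1 and DUSP8 were called in 3 of 14 alternatives: DESeq2, all 15 libraries in 1 fit, and the fit without heat replicate 2 (log2 fold changes 2.58 and 2.34). Without heat replicate 1, the library that stands apart, the log2 fold changes were 1.44 for DUSP1 (edgeR adjusted p = 0.0819) and 1.66 for DUSP8 (edgeR adjusted p = 0.101). DUSP5 had 431, 109 and 224 CPM in the heat group, against 109, 125 and 132 CPM in the 3D controls, the same split of libraries (log2 fold change 1.06 ± 0.49, edgeR adjusted p = 0.268). Without heat replicate 1 it was 0.44 (edgeR adjusted p = 0.290). DUSP1 and DUSP8 are the members whose promoters hold the CRE printed above, DUSP5 has no window in the promoter table used, and the windows of DUSP6 and DUSP10 hold none; these matches were noted with the values known.

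DUSP4, a nuclear phosphatase for ERK and JNK, had 231, 142 and 131 CPM in the heat group, against 218, 237 and 252 CPM in the 3D controls. Here replicates 2 and 3 were below control and replicate 1, the library that stands apart, was within it. Without heat replicate 1 the log2 fold change was -0.79 (edgeR adjusted p = 0.0110). SPRED1 had 20.8, 64.0 and 63.9 CPM in the heat group, against 96.7, 102 and 93.4 CPM in the 3D controls, below control in all 3. Without heat replicate 1 its log2 fold change was -0.61 (edgeR adjusted p = 0.0142); 28.8% of all genes were called in that fit.

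The Sprouty genes and SPRED2 gave no common direction. SPRY2 had 16.5, 17.96 and 29.1 CPM in the heat group, against 20.9, 22.0 and 23.2 CPM in the 3D controls. SPRY4 had 16.9, 17.2 and 34.2 CPM in the heat group, against 28.7, 33.7 and 34.7 CPM in the 3D controls. SPRED2 had 128, 78.3 and 227 CPM in the heat group, against 115, 115 and 121 CPM in the 3D controls. In all 3 genes heat replicate 3 was the highest of the heated libraries and the groups overlapped.

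**Figure D4:**
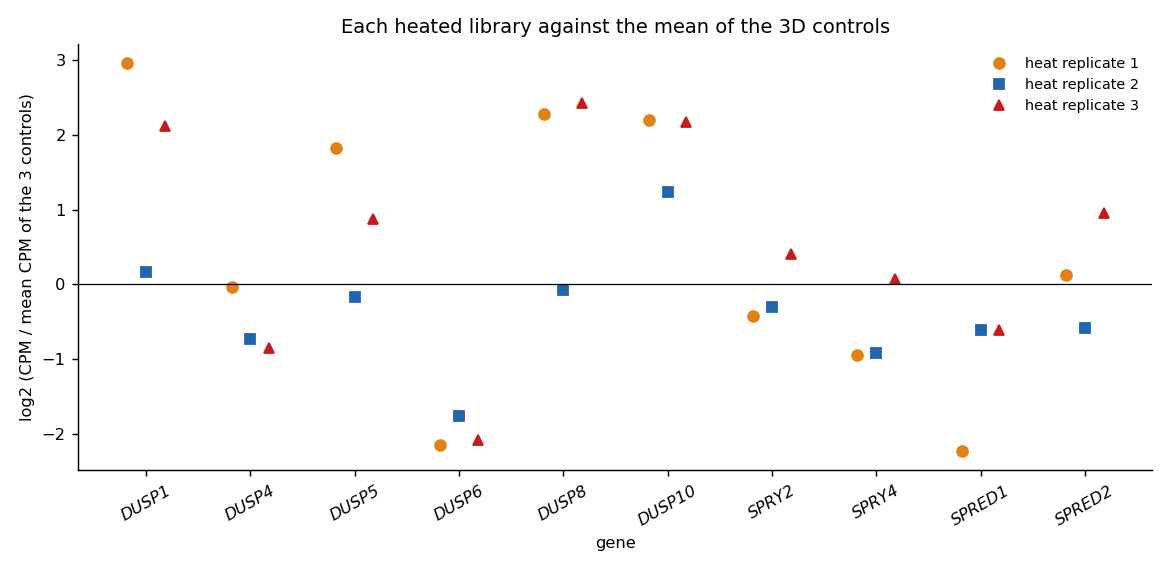
Log2 ratio of CPM in each heated library to the mean CPM of the 3 3D controls (y axis) for the 10 genes (x axis), 1 symbol per heat replicate. DUSP6 lies between -2.15 and -1.76 and DUSP10 between 1.23 and 2.20 in all 3 libraries, whereas for DUSP1, DUSP5 and DUSP8 replicate 2 lies between -0.17 and 0.16 and replicates 1 and 3 between 0.88 and 2.96.

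DUSP1 and DUSP6 can be set against each other within each library, where library scaling cancels. There were 6.41, 0.707 and 3.43 DUSP1 reads per DUSP6 read in the heat group, against 0.172, 0.182 and 0.205 in the 3D controls. The lowest heated library was still above the highest control. In that library, heat replicate 2, DUSP1 was at 1.12 times the control mean and DUSP6 at 0.295 times it. The ratio does not cancel a trend with GC content like that of heat replicate 1 (transcript GC content 55.1% for DUSP1, 46.7% for DUSP6). This ratio was chosen after its values were seen, and a ratio shows unequal change only.

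Of the pathway lists, edgeR called no gene in the heat comparison, and DESeq2 called some in most of them; the genes named next were chosen after their values were seen. Over all genes tested, DESeq2 called 12.2%, and 20.8% had an unadjusted edgeR p below 0.05. Of 12 ERK output genes, DESeq2 called 4 higher and 2 lower (7 had an unadjusted edgeR p below 0.05). Scaled within the second round, the zinc finger factor EGR1 had 499.6, 79.5 and 646 CPM in the heat group, against 34.5 to 60.7 CPM in the 3D controls. ETV5, an ETS factor induced by ERK, had 39.1, 44.4 and 42.8 CPM in the heat group, against 73.9 to 79.9 CPM in the 3D controls. Of 12 receptor brakes DESeq2 called 2 higher and 3 lower, and SPRY1 had 11.4, 25.7 and 20.1 CPM in the heat group, against 44.2 to 46.3 CPM in the 3D controls. The receptor feedback inhibitor ERRFI1 had 129, 411 and 276 CPM in the heat group, against 986 to 1019 CPM in the 3D controls. Of 12 receptors and ligands DESeq2 called 1 higher, the EGFR ligand HBEGF (30.5, 4.32 and 26.4 CPM in the heat group, against 1.91 to 2.33 CPM in the 3D controls), and 2 lower, AREG and EGFR. EGFR had 96.7, 204 and 145 CPM in the heat group, against 340.1 to 403 CPM in the 3D controls. DESeq2 called 0 of 18 RAS to ERK cascade genes, 1 higher and 1 lower of 18 JNK and p38 cascade genes, 1 of 4 other MAP kinase phosphatases (DUSP2, higher) and 0 of 8 atypical DUSP genes. The higher JNK and p38 gene was the p38 activator MAP2K3, with 1014, 97.5 and 372 CPM in the heat group, against 79.7 to 94.9 CPM in the 3D controls.

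Marker sums of other cell types differed in the heated libraries too. The fibroblast and pericyte sum was 21.2 to 56.0 CPM in the heat group and 75.3 to 77.2 CPM in the 3D controls. LUM was its largest part, with 9.75 to 47.9 CPM in the heat group and 60.5 to 61.5 CPM in the 3D controls. DCN was also lower in every heated library. COL1A1 went the other way (2.13 to 9.42 CPM in the heat group, 0.680 to 1.08 CPM in the 3D controls), as did COL1A2 and PDGFRB at low levels. The macrophage and leukocyte sum was 242 to 520 CPM in the heat group, against 227 to 246 CPM in the 3D controls, with LYZ, TYROBP and AIF1 at 0 in all heated libraries, CD14 at 0.678 to 7.55 CPM, against 0.232 to 0.510 CPM in the 3D controls, and ITGAM at 9.65 to 37.9 CPM, against 6.44 to 7.30 CPM in the 3D controls. The endothelial sum was 9.36 to 64.4 CPM in the heat group and 14.6 to 15.9 CPM in the 3D controls, with CDH5 at 0 in all heated libraries, VWF at 0.484 to 3.15 CPM, against 0.171 to 0.567 CPM in the 3D controls, and EGFL7 at 5.77 to 60.6 CPM, against 12.5 to 13.8 CPM in the 3D controls. Their part in the results was not tested.

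The genes most like the 3 most variable members were named by the smallest root-mean-square difference of centred log2 CPM over the 15 libraries, among the 10596 genes that averaged 5 CPM or more. For DUSP1 they were the stress factor ATF3 (0.384), PPP1R15A, a regulatory subunit of the phosphatase that acts on eIF2 alpha (0.401), and TSPYL2 (0.433). For DUSP8 they were the histone demethylase KDM6B (0.329), the small MAF factor MAFF (0.348) and the mRNA export factor NXF1 (0.382). For SPRED1 they were AGTPBP1 (0.15), REEP3 (0.175) and GALNT1 (0.184). These are descriptions over libraries that share groups, depth and base composition.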

How the data were processed

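RNA was measured by sequencing in 15 libraries. Per the labels' protocols, mRNA was fragmented, primed with random hexamers and read by DNA nanoball sequencing; no step that marks the strand is described. The submitters' processing notes name HISAT2 and build hg19; the counter, its gene annotation and strand option, and whether host reads were filtered out are not given in the sources used here. The authors deposited unnormalized counts of reads for each gene symbol, in 19143 entries, of which 1443 are 0 in every library and 27 carry a date in place of a symbol and were kept unnamed.

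Counts were analysed with edgeR 4.0.16 in R 4.3.3: filterByExpr by group, TMM scaling, and a robust quasi-likelihood fit with group as its only term. The 9 libraries of the first round and the 6 of the second were fitted apart (12925 and 12627 genes tested). Adjusted p-values are Benjamini-Hochberg over all genes tested, called below 0.05. SE is the size of the log2 fold change divided by the square root of the F statistic. CPM are TMM-scaled within a round, unless all 15 libraries are said to be scaled together. The code was tested on simulated data. Alternatives were DESeq2 1.42.0, other scalings and count filters, the 2 groups alone, a replicate term, a correction for GC content and transcript length (annotated for 99.4% of genes tested), all 15 libraries in 1 fit, and libraries left out. Lengths and GC content come from GENCODE 29 and promoters from RefSeq. Totals ran from 12605539 to 18634295 reads per library, and no molecular identifiers are mentioned. No 2 replicates of a group agreed within sampling noise, so none was counted as a duplicate.

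The 10 genes, the pathway lists and the tests were chosen with earlier results of these data known. Genes outside the 10 are named by a rule: in each list and comparison up to 4 called genes of smallest adjusted p, and for the 3 most variable members the 3 genes of most similar profile. Exceptions are said to be chosen after their values were seen. Some results on genes outside the 10 are not reported here.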

Additional observations from a re-analysis of the deposited data

How the results depend on the processing

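Of 580 values of single members under the alternatives, 465 kept direction and call, 48 gained a call, 32 lost one and 35 changed sign; the causes were not tested. In 3D against 2D, with 1 member higher and 3 lower, DESeq2 and median-ratio scaling gave 2 higher. The GC and length correction, no low-count filter and the 2 groups alone gave 0 higher. The 2 groups alone and the replicate block each gave 1 lower. Over all genes, DESeq2 called 5588, median-ratio scaling 4415, the 2 groups alone 2493 and the replicate block 3265, against 4247. Leaving out 1 library gave 0 to 2 higher and 0 to 5 lower. The largest counts came without 3D replicate 3, where 9493 of 13151 genes were called. In animal against 2D, with 0 higher and 1 lower, the GC and length correction gave 1 higher and 3 lower. The 2 groups alone gave 1 and 6, and DESeq2 gave 4 lower. Over all genes these fits called 3497, 7289 and 2437, in that order, against 1555. Leaving out 1 library gave 0 to 2 lower. In animal against 3D, with 0 higher and 1 lower, the GC and length correction gave 2 higher and 0 lower, upper-quartile scaling gave 1 higher, the 2 groups alone 0 lower, and the fit without both 3D libraries that stand apart 2 lower. Leaving out 1 library gave 0 to 2 higher and 0 to 2 lower. The largest counts came without 3D replicate 3, where 10132 of 13151 genes were called. Over all genes the GC and length correction called 5248, upper-quartile scaling 5050 and the 2 groups alone 2746, against 5367. In heat against control, with 0 called, all 15 libraries in 1 fit and DESeq2 each gave 3 higher and 1 lower. The GC and length correction gave 1 higher and 2 lower. Over all genes these fits called 1511, 1541 and 1415, in that order, against 3. Leaving out 1 library gave 0 to 3 higher and 0 to 3 lower. The 3 higher came without heat replicate 2 (1045 of all genes called) and the 3 lower without heat replicate 1 (3691). In 3D against 2D, DUSP10 was -0.017 with no low-count filter and -0.027 with upper-quartile scaling, and -0.073 to 0.10 with 1 library left out. In animal against 2D, DUSP6 was 0.033 with the GC and length correction and 0.0051 with upper-quartile scaling, and -0.22 to 0.13 with 1 library left out; DUSP10 was -0.019 to 0.29. In animal against 3D, the GC and length correction gave 0.057 for DUSP1, 0.94 for DUSP8 (edgeR adjusted p = 0.0175), -0.047 for DUSP10, -0.15 for SPRED1 and -0.0059 for SPRED2. Without both 3D libraries that stand apart, DUSP8 was 0.49, SPRY2 -0.36, SPRED1 -0.43 and SPRED2 -0.014. SPRY2 was -0.0016 with the filter of 10 reads, -0.095 with DESeq2, -0.093 with median-ratio scaling, -0.067 with the 2 groups alone and -0.013 with the replicate block. SPRED2 was -0.083 with DESeq2 and with median-ratio scaling and -0.049 with the 2 groups alone. With 1 library left out, DUSP10 was -0.030 to 0.28, SPRY2 -0.32 to 0.21 and SPRED2 -0.13 to 0.17. In heat against control, SPRY2 was -0.35 to 0.090 and SPRED2 -0.18 to 0.59 with 1 library left out. Same-numbered replicates did not deviate together (correlations -0.22 to 0.14). With 3 libraries per group, some of which stand apart, this cannot exclude a pairing, and none was assumed in the main fits. Over all genes, the alternatives called 1795 (without 2D replicate 2) to 9493 (without 3D replicate 3) in 3D against 2D, against 4247; 652 (without 2D replicate 1) to 7289 (the 2 groups alone) in animal against 2D, against 1555; and 2746 (the 2 groups alone) to 10132 (without 3D replicate 3) in animal against 3D, against 5367. In heat against control they called 0 (without any 1 control or heat replicate 3) to 3691 (without heat replicate 1), against 3. With the GC and length correction the calls of 3D against 2D were 1839 higher and 2329 lower, against 2586 and 1661. Median-ratio and upper-quartile scaling moved the median of all genes in animal against 3D to 0.00088 and 0.21, against 0.10 with TMM. DUSP6 and DUSP10 kept their direction in heat against control under all 14 alternatives (-2.13 to -1.80 and 1.77 to 2.17).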
